A study of Schizosaccharomyces pombe with 10 samples.

Results

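The 10 core histone genes of the fission yeast Schizosaccharomyces pombe were followed in polyA RNA sequencing, before and after hydrogen peroxide. They were chosen by gene identifier among the 7017 genes of the count table; the rule names genes, not values, but was written with earlier results of these data known. They encode histone H3 (hht1, SPAC1834.04; hht2, SPBC8D2.04; hht3, SPBC1105.11c), histone H4 (hhf1, SPAC1834.03c; hhf2, SPBC8D2.03c; hhf3, SPBC1105.12), histone H2A (hta1, SPCC622.08c; hta2, SPAC19G12.06c), histone H2B (htb1, SPCC622.09) and the variant H2A.Z (pht1, SPBC11B10.10c). All 10 passed the filters on low counts.

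The cultures grew exponentially in minimal medium, and each strain gave 1 untreated library and 1 library collected 15 min after addition of 1 mM H2O2. WT was the wild type. STY carried a deletion of sty1, the gene of the stress-activated MAP kinase, with an unaltered atf1. HA, 10D and 10M were labelled as sty1 deletions in which Atf1, the bZIP transcription factor that Sty1 phosphorylates, carried an HA tag; it was wild-type Atf1 in HA, the phosphomimicking HA-Atf1.10D in 10D and the unphosphorylatable HA-Atf1.10M in 10M. The series asked how expression depends on the phosphorylation state of Atf1, at rest and under peroxide. All 4 strains other than WT thus share the sty1 deletion by label, and no strain was replicated.

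Of the 10 genes, all but hta2 and pht1 lie in divergent pairs, in which an H3 gene and an H4 gene, or the H2B gene and an H2A gene, start from opposite sides of 1 short region. Canonical histone genes are known to be transcribed mainly in S phase, when new chromatin needs histones, and fission yeast histone promoters are known for a shared AACCCT box that binds the GATA-type factor Ams2 and the telobox protein Teb1. H2A.Z is placed into nucleosomes near promoters outside of replication.

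The shared box is printed here because it is what the canonical genes hold in common and pht1 does not. The sequences are from the RefSeq assembly ASM294v3 of S. pombe; each is 57 bases, read 5′ to 3′ on the strand that carries the box as AACCCT, and capitals mark its tandem repeat AACCCTAACCCT.
hht1-hhf1, chrI:4699627-4699683, plus strand: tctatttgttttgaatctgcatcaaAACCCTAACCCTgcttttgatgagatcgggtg
hht2-hhf2, chrII:1365040-1365096, minus strand: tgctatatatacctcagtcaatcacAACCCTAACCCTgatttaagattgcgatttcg
hht3-hhf3, chrII:3529602-3529658, plus strand: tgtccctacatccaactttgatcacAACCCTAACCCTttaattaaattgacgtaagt
hta1-htb1, chrIII:1412280-1412336, minus strand: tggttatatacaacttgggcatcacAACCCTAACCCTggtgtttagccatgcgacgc
hta2, chrI:4053351-4053407, minus strand: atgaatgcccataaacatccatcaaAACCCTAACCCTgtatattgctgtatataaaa

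All 5 elements lie outside coding sequence, upstream of the annotated starts of the histone genes. The reference annotates noncoding transcripts across 4 of them: SPNCRNA.4110 at hht1-hhf1, SPNCRNA.1611 at hht3-hhf3, SPNCRNA.1194 and SPNCRNA.7358 at hta1-htb1, and SPNCRNA.3808 at hta2. The 2 genes of a divergent pair share 1 element: the distance between their annotated starts was 132 bases for hht1 and hhf1, 134 for hht2 and hhf2, 201 for hht3 and hhf3, and 177 for hta1 and htb1. The motif AACCCT was searched on both strands in the 250 bases upstream of 5112 protein-coding genes. It occurred in 424 of these promoters (8.29%), and 2 or more copies occurred in 33 (0.646%). The tandem AACCCTAACCCT occurred in 20 promoters (0.391%), of which 9 belong to the histone genes and 11 to other genes. The tandem and the longer ATCANAACCCTAACCCT, where N is any base, were both read from the 5 histone elements above. Their match in the histone promoters was thus fixed in advance. The longer one occurred in 10 promoters (0.196%), 9 of them histone promoters. The windows of a divergent pair overlap, so they are not separate matches. The pht1 window held no AACCCT. Such a match describes the letters in a window; binding was not measured here. The build used by the authors is not given in the sources used here, and no count was read by coordinate.

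The copies of a histone differ in DNA far more than in protein. Translated from the reference, the 3 H3 genes encode the same 136 residues, while their coding sequences are 88.3% to 92.7% identical. The 3 H4 genes encode the same 103 residues from sequences 91.3% to 93.3% identical. The 2 H2A proteins differ at 3 aligned positions, and pht1 is 52.9% to 53.6% identical to them in protein. The longest run of bases shared exactly by transcripts of 2 copies was 26 to 55 bases within H3 and H4; read length and the treatment of reads that map to several places are not given in the sources used here, so the split of counts between copies is uncertain to that extent.

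Library totals ran from 9178795 to 26503471 counts, with 10D and 10M deeper than the others, and TMM factors from 0.919 to 1.11. Histone genes took from 0.376% of counts in treated STY to 1.04% in treated WT. Transcript of sty1 amounted to 266.7 and 305.2 CPM (counts relative to the TMM-scaled total of the library) in the WT libraries without and with peroxide; STY held 8.92 and 9.11 CPM, but the 6 libraries labelled HA, 10D and 10M held 101.4 to 129.9 CPM. Their sty1 counts do not match the labelled deletion, so each is named here as the library labelled HA, 10D or 10M. For atf1, WT held 143.1 and 642.6 CPM, STY 69.3 and 30.4 CPM, and the other 6 libraries 357.9 to 743.9 CPM.

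Levels are given in TMM-scaled CPM, untreated first and treated second, with 1 library behind each value. In treated WT, 8 of the 10 histone genes reached their highest level of the 10 libraries; the exceptions were hhf2 and pht1. Of 4983 genes averaging 10 CPM or more, 18.5% had their highest level there. In bulk RNA, fewer cells in S phase and less transcript per cell cannot be told apart.

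Among the H3 genes, hht3 varied most. WT held 824.8 and 1926 CPM, STY 326.3 and 360.8, HA 423.8 and 412.1, 10D 887.7 and 733.7, and 10M 428.5 and 341.9. Untreated WT and untreated 10D were alike and well above every library of STY, HA and 10M, and treated WT stood above all others. For hht2, WT held 866.7 and 1761 CPM, STY 764.5 and 783.7, HA 755.8 and 800.5, 10D 877.1 and 1621, and 10M 840.0 and 791.7. Here the 2 treated libraries of WT and 10D stood apart, while the 5 untreated libraries lay close together. For hht1, WT held 725.0 and 897.5 CPM, STY 493.8 and 445.4, HA 564.7 and 389.4, 10D 624.5 and 474.7, and 10M 561.5 and 371.1. It was higher in the treated library in WT and lower in the treated library of each other strain.

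Among the H4 genes, hhf3, the divergent partner of hht3, had the widest range. WT held 450.8 and 911.8 CPM, STY 170.0 and 187.7, HA 234.9 and 228.8, 10D 476.8 and 257.1, and 10M 256.9 and 212.5. As for hht3, untreated WT and 10D were above the untreated libraries of the other strains, but treated 10D was level with untreated 10M. For hhf1, WT held 646.0 and 730.3 CPM, STY 416.8 and 386.8, HA 419.1 and 448.5, 10D 478.9 and 349.1, and 10M 423.2 and 405.0. The 2 WT libraries stood above all others. For hhf2, WT held 382.3 and 350.8 CPM, STY 346.1 and 357.0, HA 354.0 and 325.9, 10D 334.6 and 349.3, and 10M 426.5 and 337.4. It was the flattest of the 10 genes, with a highest level 1.31 times its lowest, against 5.90 times for hht3 and 5.36 times for hhf3.

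The H2A and H2B genes were ordered much as hht1. For hta1, WT held 467.2 and 620.4 CPM, STY 316.8 and 241.0, HA 352.0 and 272.2, 10D 477.6 and 392.0, and 10M 421.2 and 311.8. For hta2, WT held 699.4 and 910.4 CPM, STY 476.9 and 282.2, HA 470.1 and 333.3, 10D 532.0 and 406.2, and 10M 460.2 and 305.9. Both were higher in treated than in untreated WT and lower in the treated library of every other strain. For htb1, the sole H2B gene, WT held 1566 and 2388 CPM, STY 1131 and 957.7, HA 1318 and 947.7, 10D 1488 and 1463, and 10M 1316 and 796.3. The same order held, except that treated and untreated 10D were nearly level.

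The H2A.Z gene pht1 was the least abundant and had its own order. WT held 79.1 and 77.9 CPM, STY 94.8 and 90.0, HA 99.6 and 124.1, 10D 66.6 and 88.4, and 10M 71.1 and 86.3. The highest library was treated HA, and the WT libraries were in the lower part of the range. Per kilobase of coding sequence, htb1 ran from 2090 to 6266 CPM per kb, hht2 from 1839 to 4286, hhf2 from 1045 to 1367 and pht1 from 158.5 to 295.5. Per kilobase of the annotated gene, which includes untranslated parts, htb1 ran from 604 to 1810 CPM per kb, hht2 from 1080 to 2516, hhf2 from 409 to 536 and pht1 from 53.6 to 99.9. The order of htb1 and hht2 thus depended on the length used, while pht1 was lowest of these 4 by either.

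**Figure D1:**
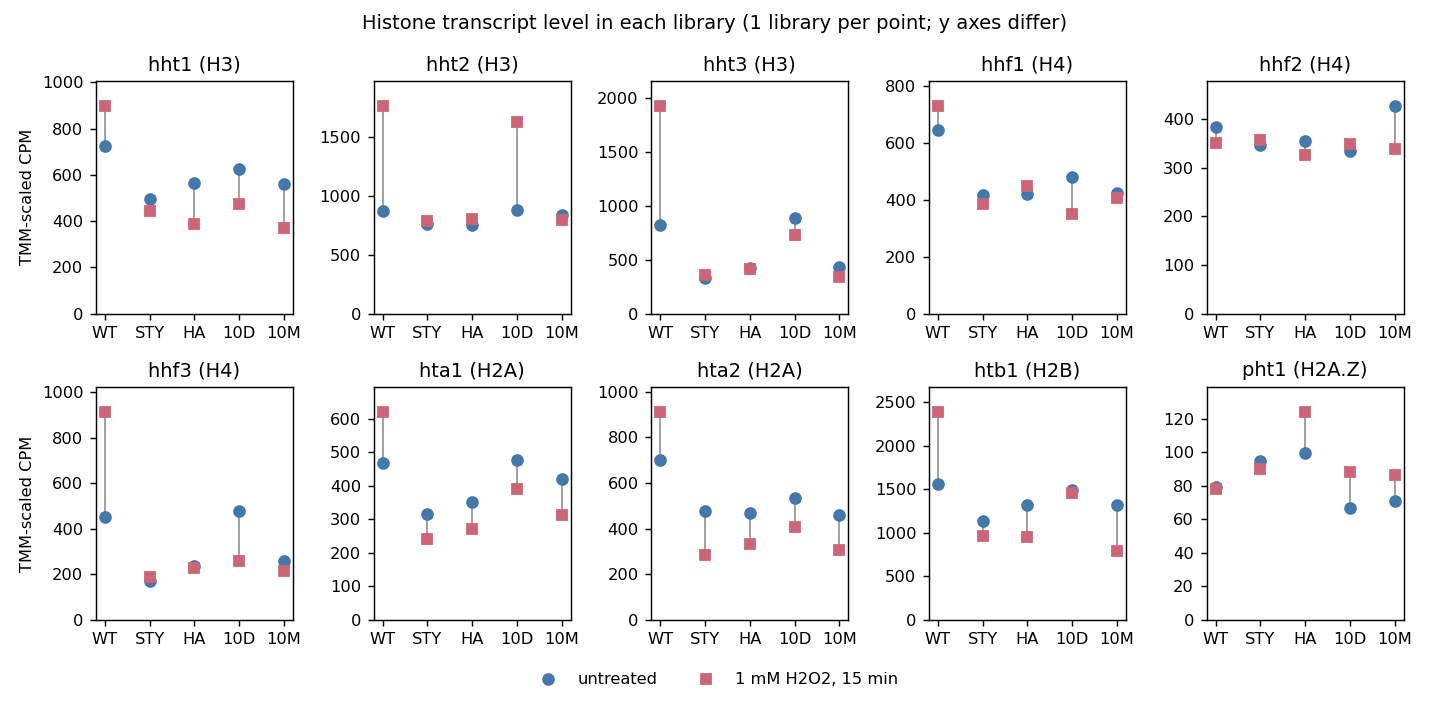
TMM-scaled CPM (y axis, starting at 0 and with its own range in each panel) of the 10 histone genes in the 5 strains (x axis), 1 point per library, untreated and after 1 mM H2O2 for 15 min. Treated WT is the highest point for 8 genes, hht2 is also high in treated 10D, and hhf2 and pht1 do not follow the rest.

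Within a strain, the treated library was compared with the untreated one by the log2 ratio of their levels, after a prior count of 2 was added; the 95% intervals are exact binomial, cover counting error only and do not cover the spread between cultures, so no test was possible for a single strain. Genes are called apart where treated and untreated differed at least 2-fold and the interval of the log2 ratio left out 0. In WT, 3 of 10 histone genes were apart, all higher with treatment, where 15.8% of the 4983 genes were apart in either direction and 9.39% were apart and higher. They were hht3, with a log2 ratio of 1.22 (1.19 to 1.26; 2.34-fold), hht2, with 1.02 (0.99 to 1.06), and hhf3, with 1.02 (0.97 to 1.07; 2.02-fold). The intervals of hht2 and hhf3 included a log2 ratio of 1, and with total counts 1 rather than 3 ratios reached 2-fold. The other 7 genes ran from a log2 ratio of -0.12 for hhf2 to 0.61 for htb1. The median log2 ratio of the 10 genes in WT was 0.39, beside -0.07 for all genes.

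No histone gene was 2-fold apart in STY, HA, 10D or 10M, where 7.85%, 11.5%, 14.6% and 6.28% of all genes were. The median log2 ratio of the 10 genes was -0.09 in STY, -0.08 in HA, -0.28 in 10D and -0.33 in 10M, and the median of all genes ran from -0.03 to -0.09 in these strains. In 10M, the log2 ratios ran from -0.72 for htb1 to 0.28 for pht1, with that of hhf1 at -0.06. In 10D, the genes went separate ways: hht2 had a log2 ratio of 0.89 (0.86 to 0.91; 1.85-fold) and hhf3 of -0.89 (-0.94 to -0.84; 0.539-fold). These 2 were the ends of the range in that strain.

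**Figure D2:**
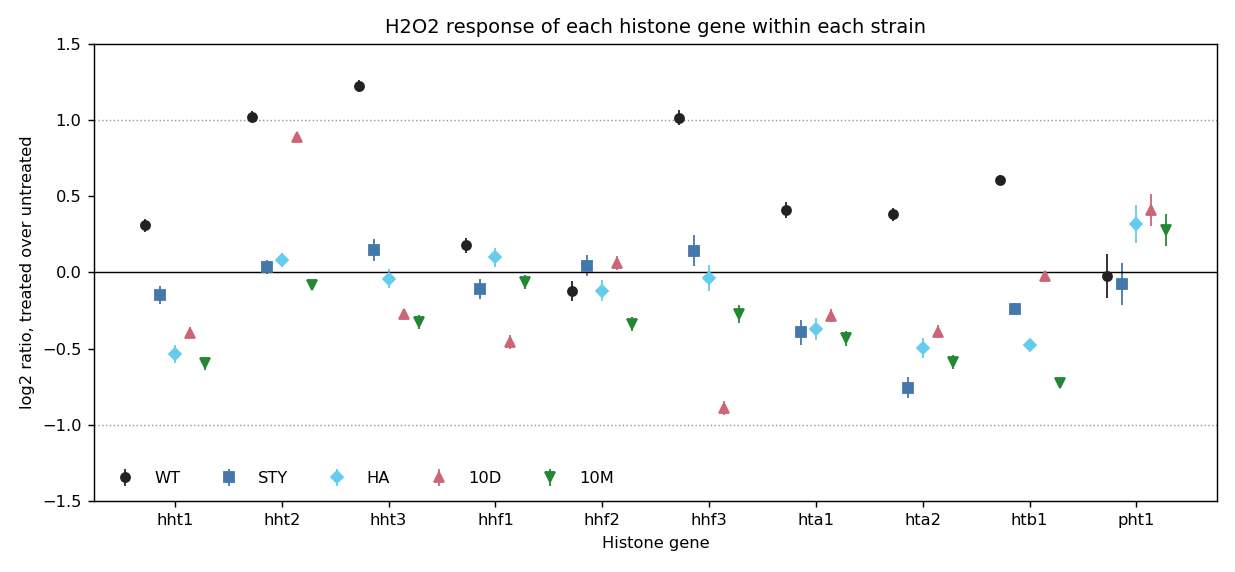
Log2 ratio of treated over untreated scaled CPM (y axis) for each histone gene (x axis) in each strain; bars are 95% counting intervals from 1 library per treatment, and dotted lines mark a 2-fold difference. WT is at 1.22 for hht3 and 1.02 for hht2 and hhf3, whereas 10D is at 0.89 for hht2 and at -0.89 for hhf3.

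The partners of a divergent pair did not always respond alike. For hht2 and hhf2, the ratio of counts was 2.27 before and 5.02 after peroxide in WT, and 2.62 and 4.64 in 10D; in the 6 libraries of STY, HA and 10M it was 1.97 to 2.46. The log2 response of hht2 minus that of hhf2 was 1.15 in WT, 0.82 in 10D, 0.20 in HA, 0.25 in 10M and -0.01 in STY. The log2 ratio of hhf2 was only -0.12 in WT and 0.06 in 10D, so the gap there mostly restates the response of hht2. For hht3 and hhf3 the ratio of counts was 1.83 and 2.11 in WT and 1.86 and 2.85 in 10D. The ratio of hht1 to hhf1 ran from 0.868 to 1.36 and that of htb1 to hta1 from 2.55 to 3.97 over the 10 libraries. Each pair has a single library per group, so these differences were not tested.

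Each H3 or H4 copy took a different share of its histone's transcripts in different libraries. Of H3 transcripts, hht2 made up 35.9% before and 38.4% after peroxide in WT, and 36.7% and 57.3% in 10D. The share of hht3 was 34.1% and 42.0% in WT, 37.2% and 25.9% in 10D, and 20.6% to 25.7% in the 6 libraries of STY, HA and 10M. For H4, hhf3 made up 30.5% before and 45.8% after peroxide in WT, 37.0% and 26.9% in 10D, and 18.2% to 23.3% in STY, HA and 10M. These are shares of counts, equal to shares per coding length, since the copies of H3 have 1 coding length and those of H4 another. The annotated genes differ in length, and per gene length the hht2 share was 39.6% and 60.2% in 10D, and the hhf3 share 36.5% and 52.5% in WT, 43.4% and 32.4% in 10D, and 22.6% to 28.4% in STY, HA and 10M. Of H2A counts, hta2 made up 49.5% to 60.1%, or 53.8% to 64.2% per gene length.

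**Figure D3:**
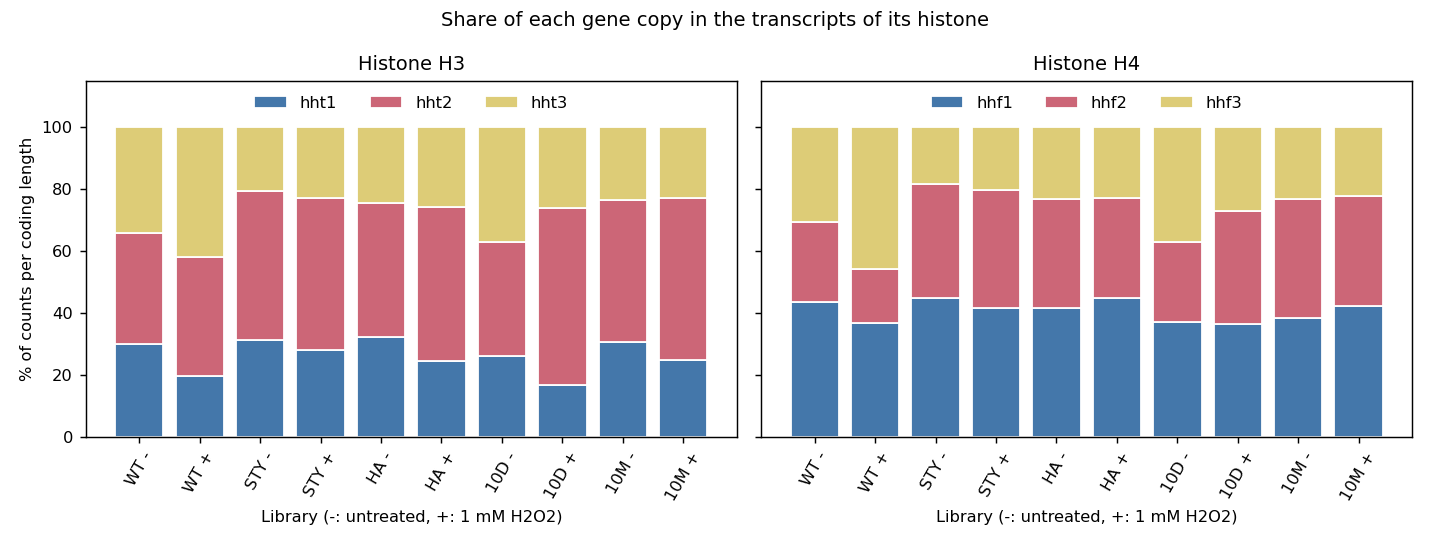
Percent of the counts per coding length of histone H3 (left) and H4 (right) that each gene copy holds (y axis). The x axis gives the 10 libraries, with minus for untreated and plus for 1 mM H2O2. The hht2 share is 57.3% in treated 10D and the hhf3 share 45.8% in treated WT.

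Summed over copies, H3 transcripts were at 2416 CPM in untreated and 4585 CPM in treated WT. In 10D they were at 2389 and 2830 CPM, and in the 6 libraries of STY, HA and 10M at 1505 to 1830 CPM. The sum of H4 was 1479 and 1993 CPM in WT and 1290 and 955.5 CPM in 10D. H3 and H4 thus diverged most after treatment in 10D, where the sum of H3 was higher and that of H4 lower than in the untreated library. The sum of H2A was 1167 and 1531 CPM in WT and lower in the treated library of each other strain, for example 793.7 and 523.2 CPM in STY.

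The tests ran across all genes with edgeR's quasi-likelihood test and Benjamini-Hochberg adjustment, at an adjusted p below 0.05. Each SE was derived from the F statistic, as the size of the log2 change over the root of F. The first was the H2O2 effect common to the 5 strains. Of 5909 genes, 4.64% passed that test by edgeR, 1744 had an unadjusted p below 0.05 and 1106 passed by DESeq2. No histone gene passed by edgeR, none had an unadjusted p below 0.05, and none passed by DESeq2. Estimates ran from -0.36 for hta2 (SE 0.185) to 0.40 for hht2 (SE 0.210) on the log2 scale. The second question was whether levels differed among the 5 strains over both treatments. No histone gene passed by edgeR, beside 1.32% of all genes. An unadjusted p below 0.05 was found for 5 histone genes, beside 1106 of the 5909 genes. The same 5 passed by DESeq2, beside 919 of all genes. These were hht3 (edgeR adjusted p = 0.109), hhf3 (edgeR adjusted p = 0.169), hta2 (edgeR adjusted p = 0.204), hhf1 (edgeR adjusted p = 0.221) and hta1 (edgeR adjusted p = 0.240).

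The third question was whether the response differed between strains. STY, HA and 10M were placed in a pool, with WT and 10D beside it, so the error came from 3 strains of different genotype, and the single libraries of WT and 10D were taken to vary by the same amount. Within the pool, hta2 fell by 0.61 on the log2 scale (SE 0.112, edgeR adjusted p = 0.0192). It was the only histone gene to pass, beside 15.5% of 6176 genes in either direction and 10.3% that fell. With strain as a block, which pairs the libraries of a strain, 4 passed (hta2, hta1, htb1 and hht1), beside 1937 of the 6176 genes. Estimates without the block were -0.47 for htb1 (SE 0.135, edgeR adjusted p = 0.0556), -0.42 for hht1 (SE 0.124, edgeR adjusted p = 0.0610) and -0.40 for hta1 (SE 0.155, edgeR adjusted p = 0.119). The hta2 call was lost without STY (edgeR adjusted p = 0.0974) and without HA (edgeR adjusted p = 0.287).

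The WT response exceeded the pool's for hht2, by 1.01 on the log2 scale (SE 0.220, edgeR adjusted p = 0.0472). This was 1 of 10 histone genes, beside 5.44% of 6176 genes in either direction and 3.47% in this one. With the block 6 passed (hht2, hht3, hhf3, hta1, hta2 and htb1), beside 1059 of the 6176 genes. Without the block, estimates were 1.30 for hht3 (SE 0.303, edgeR adjusted p = 0.0562), 0.99 for hta2 (SE 0.225, edgeR adjusted p = 0.0531) and 1.08 for htb1 (SE 0.270, edgeR adjusted p = 0.0641). Those of hhf3, hht1 and hta1 were 1.09, 0.73 and 0.81, with edgeR adjusted p between 0.110 and 0.160. The 10 estimates had a median of 0.90, beside 0.03 for all genes, and that of pht1 was the lowest, at -0.20. They share the same WT and pool libraries, so they are not separate observations. The hht2 call was lost without STY (edgeR adjusted p = 0.141) or HA (edgeR adjusted p = 0.296), and also with DESeq2 size factors (edgeR adjusted p = 0.0550), total counts (edgeR adjusted p = 0.0732) or no filter on low counts (edgeR adjusted p = 0.0527).

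The response labelled 10D was compared with the same pool, so both comparisons share its libraries. No histone gene passed by edgeR, beside 4.87% of all genes. Of the histone genes, 1 had an unadjusted p below 0.05, beside 1544 of all genes. The same gene passed by DESeq2, beside 744 of all genes, and with the block, beside 853. It was hht2, at 0.87 (SE 0.220, edgeR adjusted p = 0.0703; 0.0281 in edgeR with the block). The lowest estimate was -0.82 for hhf3 (SE 0.351, edgeR adjusted p = 0.201).

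**Figure D4:**
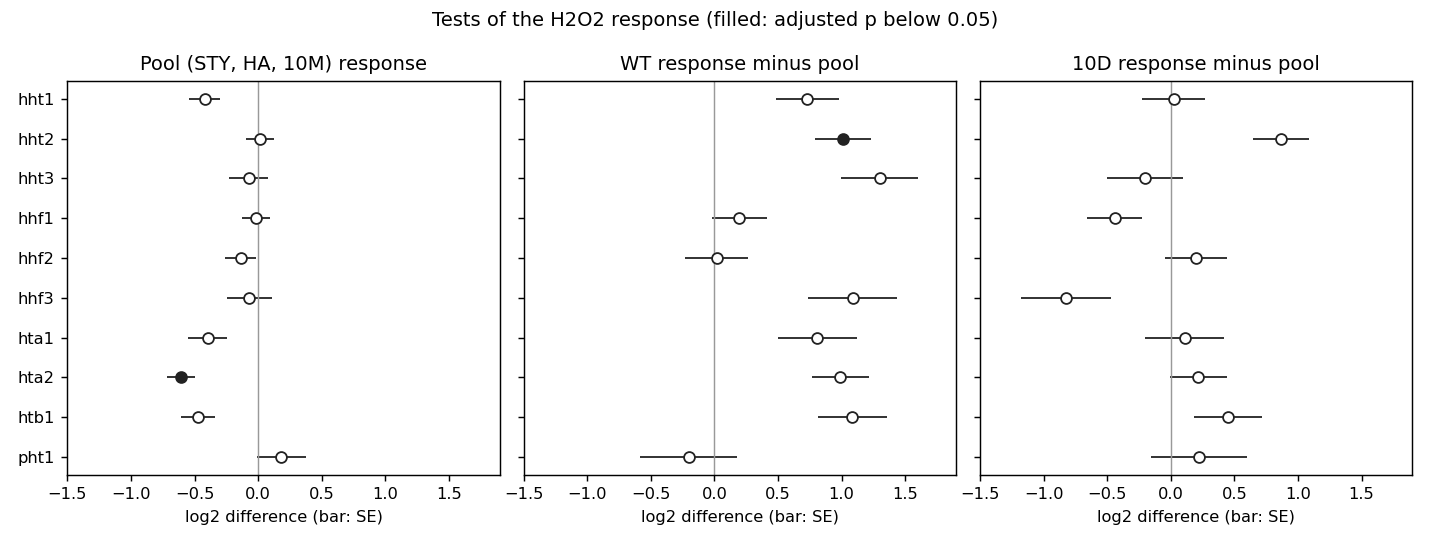
Log2 differences with SE bars (x axis) for the 10 histone genes (y axis) in the tests of the H2O2 response: the STY, HA and 10M pool, WT minus that pool, and 10D minus that pool. Filled points have an edgeR adjusted p below 0.05: hta2 in the pool, at -0.61, and hht2 in WT minus the pool, at 1.01.

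The levels themselves were also compared with the pool, in contrasts added after the data had been seen. Untreated WT was above each untreated library of STY, HA and 10M for 8 of 10 histone genes, beside 30.5% of all genes, and untreated 10D was so for 8, beside 39.1% of all genes. In the test of untreated WT against the untreated pool, no histone gene passed by edgeR, beside 0.0648% of all genes. An unadjusted p below 0.05 was found for 5 histone genes, beside 431 of all genes. By DESeq2 3 passed (hht3, hhf1 and hhf3), beside 66 of all genes. The estimates for hht3 and hhf3 were 1.07 (SE 0.202, edgeR adjusted p = 0.257) and 1.03 (SE 0.235, edgeR adjusted p = 0.382), and those for hhf1, hta2 and hht1 were 0.62, 0.58 and 0.43 (edgeR adjusted p from 0.389 to 0.659). Untreated 10D was above the untreated pool for hht3, by 1.17 (SE 0.201, edgeR adjusted p = 0.0295), the 1 histone gene to pass beside 2.67% of all genes in either direction and 2.32% that were higher. That call was lost without STY (edgeR adjusted p = 0.121) and without HA (edgeR adjusted p = 0.237). The estimate for hhf3 was 1.11 (SE 0.234, edgeR adjusted p = 0.0610).

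After treatment, the difference was broad in WT. Treated WT exceeded the treated pool for 8 of 10 histone genes, beside 37.9% of all genes in either direction and 21.5% that were higher. The estimates were 2.37 for hht3 (SE 0.194, edgeR adjusted p = 0.000597), 2.12 for hhf3 (SE 0.227, edgeR adjusted p = 0.00127), 1.57 for hta2 (SE 0.147, edgeR adjusted p = 0.000879) and 1.40 for htb1 (SE 0.178, edgeR adjusted p = 0.00215). The other 4 that passed were hta1 at 1.17, hht1 at 1.16, hht2 at 1.15 and hhf1 at 0.82, with edgeR adjusted p from 0.00217 to 0.00672, and hhf2 and pht1 were at 0.04 and -0.36. Without HA, hht1, hhf1 and hta1 no longer passed and 5 remained. Treated 10D exceeded the treated pool for 3 histone genes, beside 31% of all genes in either direction and 18.6% that were higher: hht2 by 1.02 (SE 0.147, edgeR adjusted p = 0.00397), hht3 by 0.97 (SE 0.202, edgeR adjusted p = 0.0134) and htb1 by 0.69 (SE 0.183, edgeR adjusted p = 0.0295). The estimate for hta2 was 0.39 (edgeR adjusted p = 0.0929). None of the 3 passed without HA, where the edgeR adjusted p of hht2 was 0.0680, and htb1 did not pass without STY (edgeR adjusted p = 0.0649).

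Genes that act on histones, or that share their timing, were counted from 8 lists with the test over the 5 strains. Of all 5909 genes in that test, 1744 had an unadjusted p below 0.05 and 1106 passed by DESeq2. None of the 22 histone gene regulators and H3-H4 chaperones passed by edgeR, 3 had an unadjusted p below 0.05 and 0 passed by DESeq2. None passed by edgeR either, with the counts at an unadjusted p below 0.05 and by DESeq2 in parentheses, among the 18 genes of H2A.Z exchange and H2A-H2B handling (0 and 0), the 9 of the centromere histone and inner kinetochore (3 and 0) and the 20 histone acetylation and methylation enzymes (4 and 2). Of 17 DNA replication factors, 0 passed by edgeR, 6 had an unadjusted p below 0.05 and 2 passed by DESeq2. Of 9 housekeeping controls 0 passed by edgeR, 1 had an unadjusted p below 0.05 and 1 passed by DESeq2; the median was 0.00. All genes had a median of -0.03, beside -0.07 for the histone genes.

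Some transcripts of the cell cycle fell, in a test in which 2.71% of all genes fell and 1106 of 5909 passed by DESeq2. Of 18 transcripts of the G1-S factor MBF, 5 fell, 13 did not pass by edgeR and 11 passed by DESeq2. The list median was -0.71. Of the 5, tos4 fell most, by 1.49 on the log2 scale. An S-phase cyclin, cig2, fell by 1.34, and pol1, a subunit of DNA polymerase alpha, by 0.92. Of 22 mitosis and cell separation transcripts, 12 fell, 10 did not pass by edgeR and 15 passed by DESeq2, with a list median of -0.98; slp1, the fission yeast Cdc20, fell by 2.39 and eng1, a glucanase that cuts the septum, by 2.35. The MBF list had medians of -0.69 in WT, -1.13 in STY, -0.96 in HA, -0.31 in 10D and -0.47 in 10M. It was thus below 0 in each strain. The histone median was 0.39 in WT, -0.09 in STY, -0.08 in HA, -0.28 in 10D and -0.33 in 10M. Without any 1 strain, 0 to 3 genes of the whole table passed the test over the strains. The part of cell cycle stage in the histone values was not tested.

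In the pool, 3 of the 22 regulators and chaperones fell, a share near that of all genes, of which 10.3% fell. They are named after their values were seen: ams2 by 0.96 (edgeR adjusted p = 0.0457), slm9, of the HIRA chaperone complex, by 0.71 (edgeR adjusted p = 0.0274) and scm3, the chaperone of the centromere H3, by 1.45 (edgeR adjusted p = 0.0200). The ams2 log2 ratio was 0.20 in WT, -1.33 in STY, -1.03 in HA, 0.74 in 10D and -0.38 in 10M. It was above 0 in the 2 strains in which hht2 was high after treatment, but this was not particular to ams2. The same signs held for scm3, at 0.22 in WT, -1.95 in STY, -1.57 in HA, 0.32 in 10D and -1.02 in 10M. Within this list they also held for spt6. In other lists they held for at least cnp20, mal2, res1, res2, msc1, swc3, ino80, mst2, lsd1, lsd2, mcm3, orc2 and sep1. The share of all genes with these signs was not counted. The slm9 ratio was 0.01 in WT and -0.11 in 10D. A part of ams2 in the hht2 levels was not tested. The difference between the WT and pool responses was 1.17 for ams2 (edgeR adjusted p = 0.195). For teb1 the ratios ran from -0.22 to 0.11 and for hip1, of the HIRA complex, from -0.24 to 0.01.

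Several histone genes overlap other transcripts in the reference, and whether the authors counted by strand is not given in the sources used here. On the opposite strand, another annotated transcript overlaps 8 of the 10 genes. The antisense SPNCRNA.1611 covers hhf3 entirely and lies on the strand of hht3, upstream of it. WT held 13 and 621 of its counts, STY 26 and 40, HA 12 and 69, 10D 328 and 588, and 10M 40 and 118. The hhf3 counts were 10.9 to 368.5 times as high. SPNCRNA.1194, which covers hta1, had 53 to 273 counts. Their part in the histone values was not tested.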

How the data were processed

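PolyA-enriched RNA was sequenced from 10 libraries of S. pombe, 1 per strain and treatment. Per the submitters' processing notes, the authors used FastQC, TopHat2 2.1.1 and HTSeq; build, annotation, strand and filters are not given in the sources used here. The deposited values are raw counts per gene, 9178795 to 26503471 per library, and 6843 of 7017 genes matched ASM294v3 names. Counts were scaled by TMM and tested with edgeR 4.0.16 (R 4.3.3) after filterByExpr, with Benjamini-Hochberg adjustment over all genes. The fit of strain and treatment and the fit of 6 cell means each left 4 residual degrees of freedom. The fit of the response tests with strain as a block left fewer. The planned tests, but not the level contrasts added later, were checked on simulated counts. Those had 1 dispersion for all genes and no strain differences beyond the planted changes. The check thus does not cover the spread between the pooled strains. P-values rest on differences between strains, not on repeat cultures. Strain pairs the libraries by label. Single ratios used a prior count of 2 and a mean of at least 10 CPM. Test values are given for members with an unadjusted p below 0.05 and, in some tests, for the ends of the range. Alternatives were total counts, DESeq2 1.42.0 and its size factors, other filters and prior counts, and each strain left out. The members and lists were chosen with earlier results of these data known. Besides the members, the rule named up to 4 list genes passing the test over the strains and the 5 genes most like the histone mean.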

Additional observations from a re-analysis of the deposited data

Results flagged for a closer look

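In 7 results, over 6 genes, the response to H2O2 differed from that of the STY, HA and 10M pool by an edgeR interaction test with Benjamini-Hochberg adjustment. In WT minus the pool, the log2 differences were 1.01 for hht2 (edgeR adjusted p = 0.0472), 1.56 for res1, a DNA-binding subunit of MBF (edgeR adjusted p = 0.0224), -1.22 for nda2, an alpha-tubulin gene (edgeR adjusted p = 0.0296), and -0.94 for rvb2, an ATPase of chromatin remodellers (edgeR adjusted p = 0.0474). In 10D minus the pool they were 1.62 for res1 (edgeR adjusted p = 0.0194), 1.14 for abo2 (edgeR adjusted p = 0.0361) and 1.24 for mcm4, of the replicative helicase (edgeR adjusted p = 0.0367). Of the 145 histone and listed genes tested, these were 2.76% in WT minus the pool and 2.07% in 10D minus the pool, below the 5.44% and 4.87% of all genes that passed. The hht2 call was lost with DESeq2 size factors, total counts or no filter on low counts, and without STY or HA. The 2 comparisons share the pool's libraries, and each rests on 1 WT or 10D library per treatment.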

How the results depend on the processing

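Counts of genes passing depended on the test and on single strains. For the effect over the 5 strains, 274 genes became 531 with total counts, 147 without noncoding genes, 1106 with DESeq2 and 0 to 3 without 1 strain; for differences among strains, 78 became 51 at 10 CPM, 45 without noncoding genes, 919 with DESeq2 and 3 to 264 without 1 strain (histone genes: 5 with DESeq2). In the pool response, 957 became 0 to 963 without 1 strain (histone genes 0 to 1). With total counts 3 histone genes passed, beside 917 of all genes, and with DESeq2 3, beside 1366. For WT minus the pool, 336 became 196 with total counts, 807 with DESeq2 and 0 to 650 without 1 strain; 0 histone genes passed with DESeq2 size factors, total counts or no filter, 4 with DESeq2 and 0 to 2 without 1 strain. For 10D minus the pool, 301 became 744 with DESeq2 (1 histone gene) and 0 to 485 without 1 strain (0 to 1). Without 1 strain, untreated WT against the pool ran from 0 to 42 genes (66 and 3 histone genes with DESeq2), treated WT from 716 to 2658 (5 to 8), untreated 10D from 25 to 430 (0 to 1; 402 and 2 with DESeq2) and treated 10D from 420 to 2406 (0 to 4). The cause was not tested. With total counts, 1 rather than 3 WT ratios reached 2-fold, the median of all genes in WT moved from -0.07 to -0.23, and ratios reversed to -0.0096 for hht3 and -0.012 for hhf3 in STY and -0.064 for hht2 and -0.049 for hhf1 in HA; DESeq2 size factors turned htb1 in 10D to 0.0084.

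The strain block pairs the libraries by label and leaves fewer residual degrees of freedom than the fit without it. With it, 1937 genes and 4 histone genes passed in the pool response, 1059 and 6 in WT minus the pool, and 853 and 1 in 10D minus the pool; without it, 304 genes and 0 histone genes passed over the 5 strains.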

Other observations

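Over the 10 libraries, which share strains and treatments, the log2 levels of hht3 and hhf3 had a Pearson correlation of 0.961, those of hht1 and hta2 of 0.955, and those of hht2 and its divergent partner hhf2 of -0.05. The correlations of hhf2 with other canonical genes ran from -0.05 to 0.34, and those of pht1 with the other 9 were all negative, from -0.68 to -0.24.

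Among 4973 other genes, the 5 whose levels were most like the mean of the 9 canonical histone genes were wis4, a MAP kinase kinase kinase (Pearson 0.951), ppk27 (0.945), SPBC660.17c (0.943), cip1 (0.936) and isp6 (0.934). In WT, wis4 was at 192.8 CPM untreated and 388.2 CPM treated, and isp6 at 351.8 and 623.5 CPM. Treated STY held 93.1 CPM of wis4 and 58.9 CPM of isp6, both below the untreated library.

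The tandem AACCCTAACCCT also occurred in 11 promoters outside the histone genes: SPAC27E2.11C, bdf2, eft201, erg1, hsp90, ppc89, spi1, ssa1, ssa2, tbp1 and tif51.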
